A study of Mus musculus with 48 samples.

Results

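The genes described here encode the protein subunits of the mitochondrial respiratory chain and of ATP synthase that are made from nuclear DNA. They were taken by name from the deposited table of mouse liver RNA, as protein-coding genes whose symbols start with Nduf, Uqcr, Sdha to Sdhd, Atp5, or Cox followed by a digit from 4 to 8, and a value of 10 or more was asked for in at least 2 of the 8 RNA libraries. Of 93 genes with such names, 90 passed, and these 90 stand among 17771 genes of any kind that passed and 37583 genes in the table. The names bring in genes that are not subunits. Of the 90, 80 are structural subunits, and the other 10 are 6 assembly factors (Ndufaf1 to Ndufaf4, Sdhaf1 and Sdhaf2), Atp5s, Atp5sl, Cox4nb, whose product belongs to a complex of the endoplasmic reticulum, and Atp5l-ps1, a near copy of Atp5l. The 80 subunits divide into 36 of complex I, 4 of complex II, 8 of complex III, 17 of complex IV, with Ndufa4 and its paralog Ndufa4l2 counted there, and 15 of complex V, the ATP synthase. The 3 genes that did not pass were Cox8b, Cox8c and Cox7b2. Subunits encoded by mitochondrial DNA were not analysed here.

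Electrons from NADH enter the chain at complex I and electrons from succinate at complex II. Both pass through ubiquinone to complex III and through cytochrome c to complex IV, which hands them to oxygen, and the protons pumped on the way drive ATP synthase. Several complex IV subunits exist as a widespread form and a tissue form used in muscle, lung or other tissues. In liver the chain oxidises the products of fatty acid and amino acid breakdown and supplies ATP for glucose and urea synthesis.

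RNA was measured in livers of mice with C/EBPa lox/lox and Alfp-Cre (C/EBPα KO, n = 3), in livers with HNF4a lox/lox and Alfp-Cre (HNF4α KO, n = 2) and in wild-type livers (WT, n = 3). Alfp-Cre is active in the hepatocyte and bile duct lineage, so other liver cells keep both factors. All mice were males on an F1 C57Bl6/CBA background. The sample labels give the RNA an age of 60 postnatal days and the series text gives E18.5. Afp, the alpha-fetoprotein gene that is switched off after birth, stood at 381833, 97621 and 349858 normalized reads in C/EBPα KO, 227430 and 305323 in HNF4α KO, and 625821, 499143 and 706964 in WT, so the age of the RNA is not settled here. Binding of C/EBPα and HNF4α, transcription factors of hepatocytes, was mapped by ChIP-seq in wild-type liver at E15.5, E18.5, P0.5, P14 and P60, with 2 peak lists per factor and stage. At P0.5 both lists of HNF4α held the same peaks, so they count as 1. The question for these genes was whether either knockout changed their RNA and at which stages either factor lay at their start sites.

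Library totals ran from 13448347 to 25992243 normalized reads. Cebpa had 322, 419 and 998 normalized reads in C/EBPα KO against 9999, 9594 and 5511 in WT. Hnf4a had 1238 and 2444 in HNF4α KO against 9098, 4948 and 6718 in WT. Each knockout was also lower in the gene of the other factor. Cebpa had 3886 and 4500 in HNF4α KO, below every WT library, where 22.4% of all genes lay so. Hnf4a had 2492, 2530 and 4510 in C/EBPα KO, again below every WT library, where 10.3% of all genes lay so. HNF4α KO replicate 1 also held RNA of skeletal muscle. The 14 skeletal muscle markers summed to 688219 normalized reads there, against 266 in HNF4α KO replicate 2, 132 to 1550 in C/EBPα KO and 112 to 224 in WT, and each of the 14 was over 10-fold higher in it than in any other library. Since muscle is rich in mitochondria, the genes that passed in HNF4α KO are given also without that library. HNF4α KO is then 1 sample, assumed to vary like the other groups, so a call lost in this way does not show a smaller change. Nothing in the labels says whether replicates came from separate animals, so p-values measure the spread between these samples.

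As a set, the 90 genes differed more between libraries of 1 group than between groups. The median deviation of the 90 from their mean over all libraries was -0.81, 0.28 and -0.37 log2 in C/EBPα KO, 0.60 and 0.21 in HNF4α KO, and -0.12, 0.75 and -0.67 in WT. The WT libraries alone spanned every knockout value except that of C/EBPα KO replicate 1. WT replicate 2 was the highest WT library for 80 of the 90 genes and WT replicate 3 the lowest for 75. The highest WT library exceeded the lowest by a median of 3.03 times and by more than 2 times for 62 genes. The share of all normalized reads taken by the 90 genes was 0.95% ± 0.233 in C/EBPα KO (SD, n = 3), 1.03% ± 0.063 in HNF4α KO (SD, n = 2) and 0.865% ± 0.331 in WT (SD, n = 3).

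**Figure D1:**
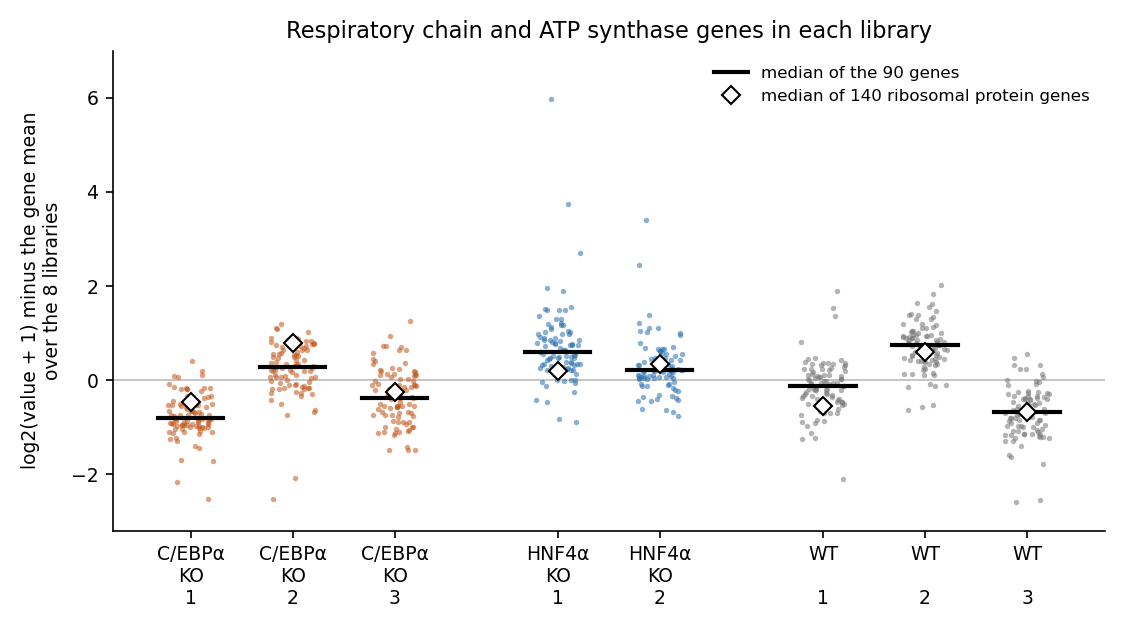
Log2(value + 1) of each of the 90 genes minus its mean over the 8 libraries, by library, with C/EBPα KO in orange, HNF4α KO in blue and WT in grey. Bars are medians of the 90 genes and diamonds are medians of 140 ribosomal protein genes. The bars of WT reach from -0.67 to 0.75, and the diamonds of WT have the same order.

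Genes of another machinery also differed between libraries of 1 group. The median deviation of 140 cytosolic ribosomal protein genes was -0.47, 0.78 and -0.25 log2 in C/EBPα KO, 0.20 and 0.35 in HNF4α KO, and -0.55, 0.60 and -0.68 in WT. The order of the libraries was that of the 90 genes in C/EBPα KO and WT, and the reverse in HNF4α KO. Libraries also differed in how values followed the GC content of genes. The rank correlation across genes between GC content and the deviation from the mean was -0.32, -0.10 and 0.28 in C/EBPα KO, 0.36 and 0.33 in HNF4α KO, and -0.11, -0.01 and -0.49 in WT; genes are not independent replicates. The part of these differences in the results for the 90 genes was not tested.

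In C/EBPα KO liver none of the 90 genes passed limma's adjusted p of 0.05 over all genes, in a comparison in which 3.75% of all genes did in either direction. At an unadjusted p under 0.05 there were 3, all lower in the knockout, or fewer than the 14.4% of all genes that reached it. They were Uqcrh, Sdhd and Ndufa1, the last named after its values were seen. With libraries weighted by their quality, 10 of the 90 passed, all lower, where 9.45% of all genes did. The estimates lay below 0 for 71 of the 90 genes and above 0 for 19, with a median of -0.20 log2, where 51.4% of all genes were above 0 and the median was 0.03. This direction depended on the libraries and the scaling. The median of the 90 was 0.17 without WT replicate 2, and it was 0.31 when libraries were set to equal totals, a scaling that moved the median of all genes to 0.53. Relative to all genes the median of the 90 was -0.23 with the deposited scaling and -0.22 with equal totals.

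With the deposited scaling, none of the 4 genes of complex II and none of the 8 of complex III had an estimate above 0 in C/EBPα KO. Sdhd, a membrane anchor of succinate dehydrogenase, had 3098, 4684 and 2778 normalized reads in C/EBPα KO against 6153, 7196 and 5286 in WT. All 3 knockout libraries lay below all 3 WT libraries, the only such case among the 90, where 10.3% of all genes showed it, and no gene of the 90 lay above WT in this way, where 8.54% of all genes did. Its log2 change was -0.85 ± 0.35 (SE; unadjusted p = 0.0353, adjusted p = 0.289). The log2 estimates of the other 3 subunits of complex II were -0.58 ± 0.37 for Sdha, the flavoprotein that oxidises succinate, -0.12 ± 0.41 for Sdhb, which carries iron-sulfur clusters, and -0.78 ± 0.44 for Sdhc, the other anchor (SE, limma's adjusted p 0.489 to 0.945).

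Uqcrh, the hinge protein of complex III next to cytochrome c, had 1574, 3291 and 1036 normalized reads in C/EBPα KO against 5089, 7092 and 2041 in WT. The groups overlapped, since WT replicate 3 lay below C/EBPα KO replicate 2. Its log2 change was -1.26 ± 0.52 (SE; adjusted p = 0.28). Uqcr11, a small complex III subunit, had 1282, 1490 and 2226 normalized reads in C/EBPα KO against 6349, 4791 and 1238 in WT. WT replicate 3 lay below all 3 knockout libraries. The log2 change was -1.05 ± 0.54 (SE; adjusted p = 0.426), and without WT replicate 3 it was -1.77 with an adjusted p of 0.0354.

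Among the other genes at the ends of the C/EBPα KO range were Atp5l-ps1 (-2.05 ± 0.94, a near copy of Atp5l, whose reads may not be separable from its parent's), Atp5e, the epsilon subunit of the ATP synthase head (-1.14 ± 0.62), and Ndufa4l2 (-1.10 ± 0.53). At the upper end were Cox4i2 (0.59 ± 0.69), the complex I accessory subunits Ndufs6 (0.46 ± 0.68), Ndufab1, which is also the mitochondrial acyl carrier protein (0.41 ± 0.45), and Ndufa6 (0.31 ± 0.49), and Cox4nb (0.31 ± 0.33). These are log2 changes ± SE, with adjusted p between 0.354 and 0.863. None exceeded the spread between replicates by this test.

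In HNF4α KO liver 2 of the 90 genes rose, Cox4i2 and Ndufa4l2, where 1.54% of all genes did, and none fell, where 3.17% of all genes did. At an unadjusted p under 0.05 there were 9 higher and 1 lower, or fewer than the 20.6% of all genes that reached it. With libraries weighted by their quality 17 of the 90 were higher, where 11.8% of all genes were, and 1 was lower, where 12.5% were. Estimates lay above 0 for 73 of the 90 genes with a median of 0.44 log2, where 50.6% of all genes were above 0 with a median of 0.02; the median of the 90 was 0.23 without HNF4α KO replicate 1 and 0.08 without WT replicate 3. Both knockout libraries stood above all 3 WT libraries for 8 of the 90 genes, where 22.1% of all genes did, and below them for 3, where 22.4% did. The 8 were Cox4i2, Cox6a2, Cox8a and Ndufa4l2 of complex IV, Ndufc2 and Ndufv3 of complex I, the assembly factor Ndufaf3, and Cox4nb; the 3 were Ndufs1, Ndufaf1 and Atp5s. Ndufv3 and Ndufaf3 were named after their values were seen.

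**Figure D2:**
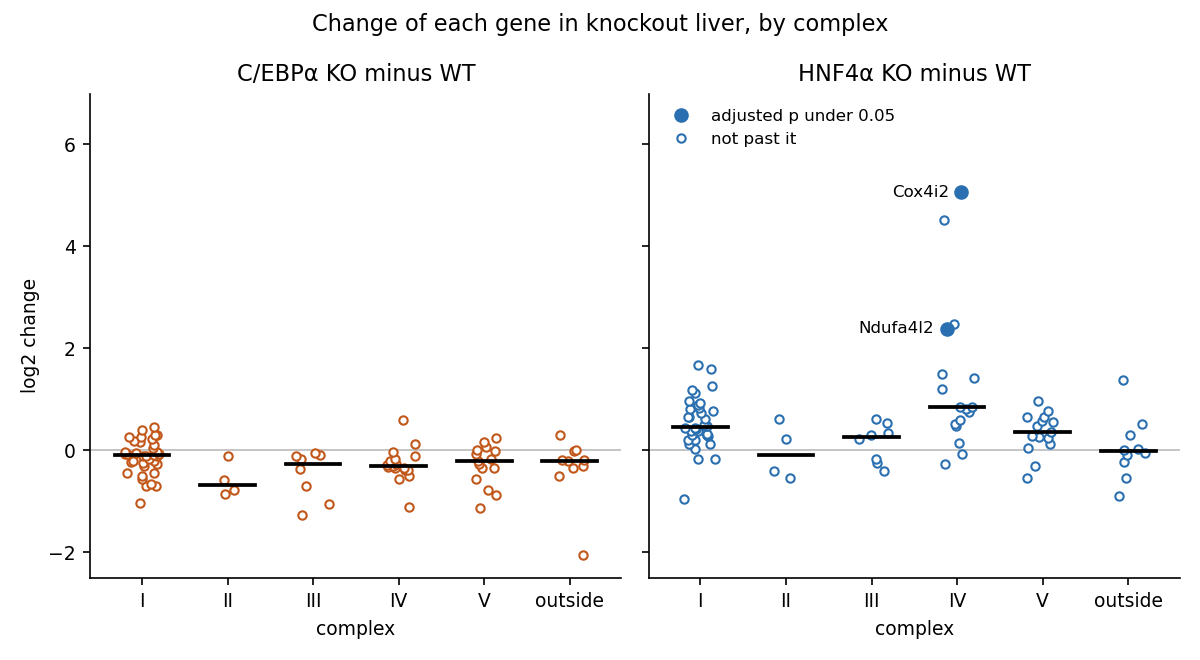
Log2 change of each of the 90 genes in C/EBPα KO minus WT (left) and HNF4α KO minus WT (right), by complex, with bars at the medians and filled points where limma's adjusted p was under 0.05. The filled points are Cox4i2 at 5.06 and Ndufa4l2 at 2.38, both in complex IV of the HNF4α KO; no point is filled in the C/EBPα KO.

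Cox4i2 encodes the second isoform of subunit 4 of complex IV, which is used mainly in lung, carotid body and vessel-associated cells and is known to respond to oxygen. Its values were 728 and 571 normalized reads in HNF4α KO, 11, 34 and 58 in C/EBPα KO, and 22, 34 and 8 in WT. Both HNF4α KO libraries stood far above the other 6, which overlapped among themselves. The mean was 649.5 ± 111 in HNF4α KO (SD, n = 2) and 21.3 ± 13 in WT (SD, n = 3), a log2 change of 5.06 ± 0.78 (SE; limma, adjusted p = 0.00379). With HNF4α KO replicate 2 as the only knockout library, the change was 4.89 with an adjusted p of 0.0698. The widespread isoform, Cox4i1, had 14786 and 8036 normalized reads in HNF4α KO against 4605, 10770 and 4495 in WT, which overlapped (log2 change 0.85 ± 0.49, adjusted p = 0.35). Cox4i2 made up 4.69% and 6.63% of the normalized reads of the pair in HNF4α KO, 0.301% to 1.1% in C/EBPα KO and 0.178% to 0.475% in WT, as shares of reads not scaled to gene length.

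Ndufa4l2 is a paralog of the complex IV subunit Ndufa4 and a known target of the low-oxygen factor HIF-1. It had 3864 and 5447 normalized reads in HNF4α KO, 309, 234 and 944 in C/EBPα KO, and 1039, 1306 and 501 in WT. The HNF4α KO libraries did not overlap with WT, and C/EBPα KO overlapped with it. The log2 change in HNF4α KO was 2.38 ± 0.59 (SE; adjusted p = 0.0439), and without HNF4α KO replicate 1, the library with muscle RNA, it was 2.63 with an adjusted p of 0.222. With HNF4α KO replicate 1 as the only knockout library the change was 2.13. The call was also lost without WT replicate 1 (0.111), WT replicate 2 (0.0533), WT replicate 3 (0.135) or C/EBPα KO replicate 1 (0.061). It was lost too without WT replicate 3 and C/EBPα KO replicate 1 together (0.198). The choice of fit and filter mattered as well: no filter on values (0.0777), a replicate block (0.0952) and no variance trend (0.103) each removed the call. In all of these the change stayed between 1.98 and 2.67. Its share of the pair with Ndufa4 was 91.3% and 83.0% in HNF4α KO, 28.4% to 55.8% in C/EBPα KO and 42.1% to 67.9% in WT. Ndufa4l2 lies on mouse chromosome 10 at 126951995 to 126954208 (mm9, plus strand) and overlaps Shmt2 on the other strand. Shmt2, a mitochondrial enzyme of serine and glycine metabolism, had a log2 change of 0.82 (adjusted p = 0.222) in HNF4α KO, and the sources used here do not say whether reads were counted by strand.

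Cox8a encodes the widespread form of a small complex IV subunit. It had 9824 and 9377 normalized reads in HNF4α KO, 2548, 2822 and 2606 in C/EBPα KO, and 3121, 5403 and 2325 in WT. The HNF4α KO values were close together and above all others. The log2 change against WT was 1.50 ± 0.40 (SE), with an adjusted p of 0.0604 that missed the threshold; over the alternatives it ran from 0.0019 to 0.401, while the change stayed between 1.22 and 1.83. The promoter of Cox8a is shown because this gene differed between the knockouts. It was taken from RefSeq for GRCm38.p6 (chr19:7217567-7217866, minus strand, 250 bases before to 50 after the start), and capitals mark the letters CCGGAAG, bound by ETS factors such as GABP, on either strand.
Cox8a: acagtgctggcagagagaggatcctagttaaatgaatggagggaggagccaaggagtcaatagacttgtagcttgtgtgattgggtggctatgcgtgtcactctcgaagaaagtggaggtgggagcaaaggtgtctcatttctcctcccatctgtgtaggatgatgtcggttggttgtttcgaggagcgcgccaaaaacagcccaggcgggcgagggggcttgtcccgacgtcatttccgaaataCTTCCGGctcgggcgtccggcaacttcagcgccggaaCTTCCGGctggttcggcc
The letters occur at 246 to 252 and 283 to 289, counted from 1 at the 5′ end of this stretch, and the start lies after base 250.

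Muscle forms of complex IV subunits were high in 1 HNF4α KO library. Cox6a2, the heart and skeletal muscle form of subunit 6a, had 1084 and 36 normalized reads in HNF4α KO, 2, 2 and 32 in C/EBPα KO, and 3, 11 and 13 in WT. HNF4α KO replicate 1 stood apart, and replicate 2 was near C/EBPα KO replicate 3. The log2 change was 4.52 ± 1.44 (SE; adjusted p = 0.105). Cox7a1, the muscle and brown fat form of subunit 7a, had 229 and 72 normalized reads in HNF4α KO, 14, 31 and 23 in C/EBPα KO, and 18, 107 and 5 in WT, with overlap between HNF4α KO and WT (log2 change 2.49 ± 1.05, adjusted p = 0.211). Cox8b, the muscle form of subunit 8 that did not pass the value filter, had 300 and 1 in HNF4α KO, 0, 0 and 1 in C/EBPα KO, and 0 in each WT library. Cox6b2, known from testis, had 909 and 600 normalized reads in HNF4α KO, 362, 480 and 482 in C/EBPα KO, and 502, 607 and 387 in WT, again with overlap. The widespread partners of these forms overlapped between groups as well. Cox6a1 had 5553 and 9861 normalized reads in HNF4α KO, 2205, 3841 and 7944 in C/EBPα KO, and 4812, 11150 and 1609 in WT. Cox6b1 had 2375 and 3125 in HNF4α KO, 641, 1619 and 532 in C/EBPα KO, and 505, 4279 and 490 in WT, so that WT replicate 2 stood above all others; without it the HNF4α KO change was 2.45 with an adjusted p of 0.0335, against 1.42 and 0.356 with it. Cox7a2 had 1520 and 1286 in HNF4α KO, 423, 1406 and 423 in C/EBPα KO, and 519, 1603 and 608 in WT. In HNF4α KO replicates 1 and 2, Cox4i2 had 728 and 571 normalized reads and Ndufa4l2 had 3864 and 5447. The part of muscle RNA in the values of these genes was not tested.

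**Figure D3:**
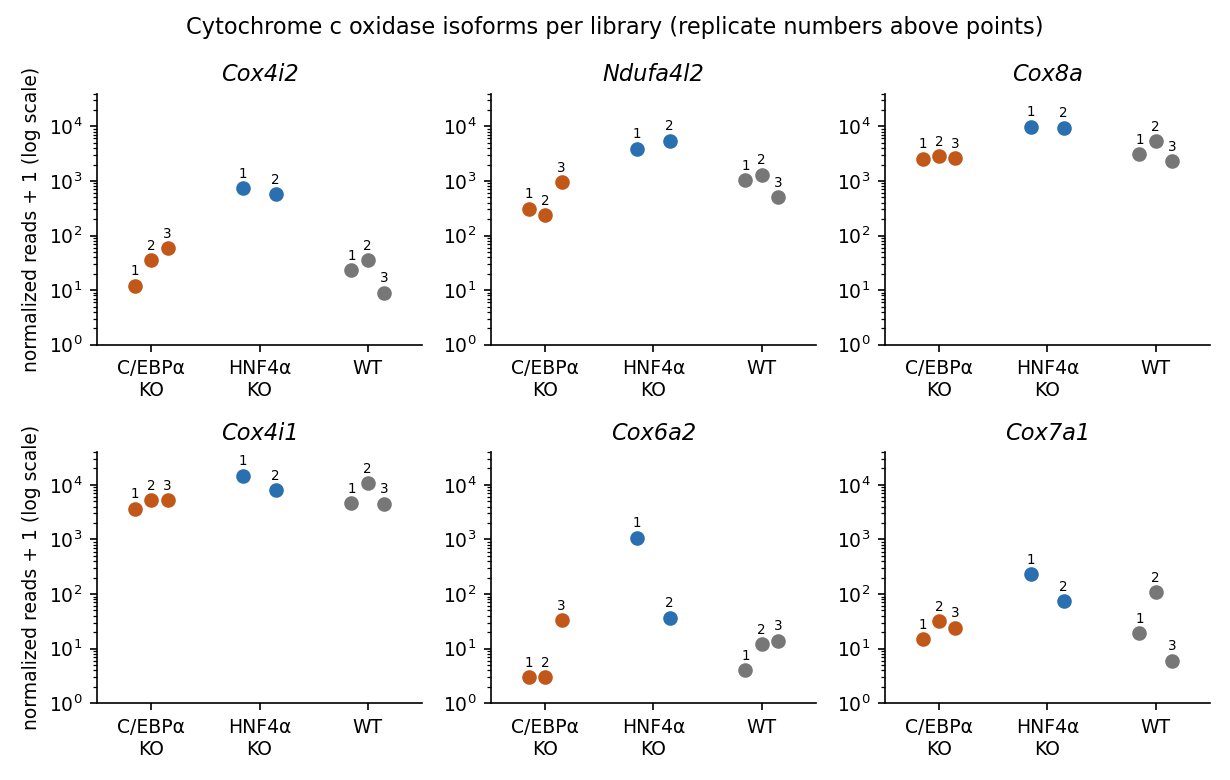
Normalized reads + 1 (log scale) of 6 complex IV genes in each library, C/EBPα KO in orange, HNF4α KO in blue and WT in grey, with replicate numbers above the points. Cox4i2, Ndufa4l2 and Cox8a were high in both HNF4α KO libraries, whereas Cox6a2 reached 1084 in HNF4α KO replicate 1 and 36 in replicate 2.

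Markers of cells that could carry these isoforms were read beside them. Of 7 smooth muscle and pericyte genes, 1 rose in HNF4α KO, where 1.54% of all genes did. It was Acta2, smooth muscle actin, with 4175 and 3474 normalized reads in HNF4α KO against 994, 375 and 970 in WT. Its log2 change was 2.42 (limma, adjusted p = 0.0107), and 2.28 without HNF4α KO replicate 1. All 7 estimates were above 0, where 50.6% of all genes were. Among the 7, Cnn1 passed the value filter only through the HNF4α KO libraries (31 and 38), so its estimate is no independent support. The 7 summed to 37012 and 5488 in HNF4α KO, 1328 to 2519 in C/EBPα KO and 1130 to 1788 in WT, with 31081 of the first sum from Des, desmin, which skeletal muscle also expresses. Of 6 brown fat markers 2 passed the value filter, and 1 of them was Cidea, with 169 and 155 in HNF4α KO against 4, 8 and 1 in WT (log2 change 5.18, adjusted p = 0.0105; 5.12 and 0.148 without HNF4α KO replicate 1). Cidea passed the filter only through the HNF4α KO libraries, so its test is no independent support. Ucp1, which defines that tissue, was at 0 or 1 in every library. Of 6 macrophage genes 1 rose, Cd68 (1.70, adjusted p = 0.0458; 1.72 and 0.328 without HNF4α KO replicate 1), and of 6 endothelial, 7 erythroid, 14 skeletal muscle and 4 heart muscle genes none passed. In whole liver a larger number of such cells and more RNA per cell cannot be told apart, and their part in the rise of Cox4i2 and Ndufa4l2 was not tested. Of 12 genes raised by low oxygen, a list chosen after these values were seen, 1 rose in HNF4α KO, where 1.54% of all genes did. It was Adm, the peptide hormone adrenomedullin, with a log2 change of 2.43 (limma, adjusted p = 0.0093), and 2.73 without HNF4α KO replicate 1. Estimates lay above 0 for 10 of 12, where 50.6% of all genes did. Pdk1 went the other way, with 1363 and 1216 normalized reads in HNF4α KO against 2819, 1675 and 2573 in WT. Bnip3, a mitophagy receptor, had 7718 and 7507 against 7639, 9632 and 7073, which overlapped. In C/EBPα KO 2 of the 12 fell, where 3.75% of all genes passed in either direction. They were Bnip3 (-3.23, adjusted p = 0.000169) and the HIF hydroxylase gene Egln3 (-1.37, adjusted p = 0.0255).

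Between complexes the HNF4α KO estimates ran from a median of 0.85 log2 over the 17 genes of complex IV, 15 of them above 0, to -0.09 over the 4 genes of complex II. Complex I had a median of 0.46 with 33 of 36 above 0, complex V 0.35 with 13 of 15, and complex III 0.26 with 5 of 8. Apart from Cox4i2 and Ndufa4l2 no gene of these complexes passed, and differences between the complexes were not tested. Ndufc2, a membrane-arm subunit of complex I, had 2474 and 1818 normalized reads in HNF4α KO against 516, 1189 and 480 in WT (1.67 ± 0.61, adjusted p = 0.153). Ndufs1, the largest subunit of complex I, which carries iron-sulfur clusters, was lower in the knockout, with 872 and 759 normalized reads in HNF4α KO against 1508, 1584 and 1621 in WT, and 1541, 1027 and 850 in C/EBPα KO. The HNF4α KO and WT values did not overlap and WT varied little (-0.95 ± 0.34, adjusted p = 0.15). The other low estimates were Atp5s (-0.90 ± 0.46), Atp5f1, subunit b of the ATP synthase stalk (-0.55 ± 0.52), Ndufaf1, a complex I assembly factor (-0.55 ± 0.43), and Sdhd (-0.54 ± 0.39), with adjusted p from 0.296 to 0.58.

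The c ring of ATP synthase, the rotor that protons turn, is encoded by 3 genes whose mature proteins are alike. Atp5g3 gave 74.3% and 69.1% of the normalized reads of the 3 genes in HNF4α KO, 52.6% to 78.1% in C/EBPα KO and 67.6% to 76.1% in WT. Atp5g1 gave 18.1% and 19.0% in HNF4α KO, 13.7% to 35.5% in C/EBPα KO and 16.6% to 23.9% in WT. These shares too are not scaled to length, and the C/EBPα KO libraries spanned the others. Log2 changes of the 3 genes were 0.57, 0.77 and 0.66 for Atp5g1, Atp5g2 and Atp5g3 in HNF4α KO and -0.34, -0.35 and -0.56 in C/EBPα KO, none past the threshold (adjusted p 0.411 to 0.851). Atp5b, the catalytic beta subunit, had 25028 and 19219 normalized reads in HNF4α KO, 15305, 22237 and 11238 in C/EBPα KO, and 17047, 24493 and 14266 in WT, and all groups overlapped. Ndufb10, an accessory subunit of complex I, likewise overlapped, with 4858 and 2829 in HNF4α KO, 1537, 3358 and 1291 in C/EBPα KO, and 2802, 5358 and 1437 in WT.

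Set directly against each other, C/EBPα KO was lower than HNF4α KO for 3 of the 90 genes, all of complex IV, where 1.87% of all genes were lower. They were Ndufa4l2 (log2 difference -3.48 ± 0.59, adjusted p = 0.0103), Cox4i2 (-4.47 ± 0.78, adjusted p = 0.0115) and Cox8a (-1.85 ± 0.40, adjusted p = 0.0322), and none was higher. With HNF4α KO replicate 2 as the only library of its group the differences were -3.73, -4.29 and -1.82, with adjusted p of 0.0971, 0.164 and 0.276. With replicate 1 as the only one they were -3.24, -4.64 and -1.89, with adjusted p of 0.0726, 0.0599 and 0.133, and Cox6a2 passed. The Cox8a call was also lost without C/EBPα KO replicate 1 (0.105), without WT replicate 1 (0.0706), and without WT replicate 3 and C/EBPα KO replicate 1 together (0.116). It was lost too with no filter on values (0.0596), only the groups compared (0.0607), a replicate block (0.108) or no variance trend (0.0658). With equal library totals the difference was -1.27 and the call was lost (0.0836). With libraries weighted by their quality 16 of the 90 genes were lower, where 7.88% of all genes were. Estimates lay below 0 for 82 of the 90 genes, with a median of -0.72 log2, where the median of all genes was -0.00; with equal library totals the 2 medians were -0.14 and 0.57.

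Other genes of the pathway were read as lists. Of 13 regulators of mitochondrial genes, 1 fell in HNF4α KO and none changed in C/EBPα KO. It was Ppara, the nuclear receptor for fatty acids, with 90 and 140 normalized reads in HNF4α KO against 1053, 457 and 1874 in WT (-3.09, adjusted p = 0.0275; -2.78 and 0.291 without HNF4α KO replicate 1). Ppargc1a, the coactivator PGC-1α, which drives mitochondrial genes, had 160 and 157 in HNF4α KO, 203, 178 and 288 in C/EBPα KO, and 390, 380 and 569 in WT. Neither knockout overlapped with WT, and neither comparison passed (limma, adjusted p = 0.058 for HNF4α KO and 0.178 for C/EBPα KO). This was not particular to Ppargc1a, since Ppargc1b, Yy1 and Tfb2m of the same list also lay below every WT library in both knockouts. Of all genes, 22.4% lay below every WT library in HNF4α KO and 10.3% in C/EBPα KO. Of 22 assembly factors outside the name rule 1 changed: Lrpprc, which stabilises mitochondrial messenger RNAs, fell to 782 and 690 in HNF4α KO, against 3224, 2101 and 2991 in WT (-1.89, adjusted p = 0.0103; -1.98 and 0.106 without HNF4α KO replicate 1). None of 16 genes of the tricarboxylic acid cycle and pyruvate dehydrogenase, 9 of ubiquinone synthesis or 4 further carriers and subunits (Cyc1, Cycs, Atpif1 and Usmg5) passed in either knockout. Of 7 hepatocyte genes 1 fell in HNF4α KO, Apob, the lipoprotein apolipoprotein B (-4.96, adjusted p = 0.00242; -4.76 and 0.0524 without HNF4α KO replicate 1).

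Both factors had peaks at the start sites of many of the 90 genes, in shares that mostly followed those of all genes. A gene was counted as bound at a stage when each replicate had a peak within 1000 bp of its transcription start site (TSS), against 14942 protein-coding genes that passed the same filter on RNA. C/EBPα was at 8 of the 90 genes at E15.5 (7.42% of all), 40 at E18.5 (36.2% of all), 62 at P0.5 (51.9%), 29 at P14 (29.2%) and 25 at P60 (27.2%). As shares of the 90 these are 8.89%, 44.4%, 68.9%, 32.2% and 27.8%. HNF4α was at 29 genes at E15.5 (24.3% of all), 2 at E18.5 (6.33%), 30 at P0.5 (25.2%), 24 at P14 (23.6%) and 46 at P60 (32.5%), or 32.2%, 2.22%, 33.3%, 26.7% and 51.1% of the 90. The 90 genes stood furthest above all genes at P0.5 for C/EBPα and at P60 for HNF4α. The lists held 13434 to 121624 peaks for C/EBPα and 21262 to 53278 for HNF4α, and the part of list size in the change from stage to stage was not tested. Of the 90 genes, 32 have the start of another protein-coding gene within 1000 bp, so a peak there may belong to the neighbour.

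**Figure D4:**
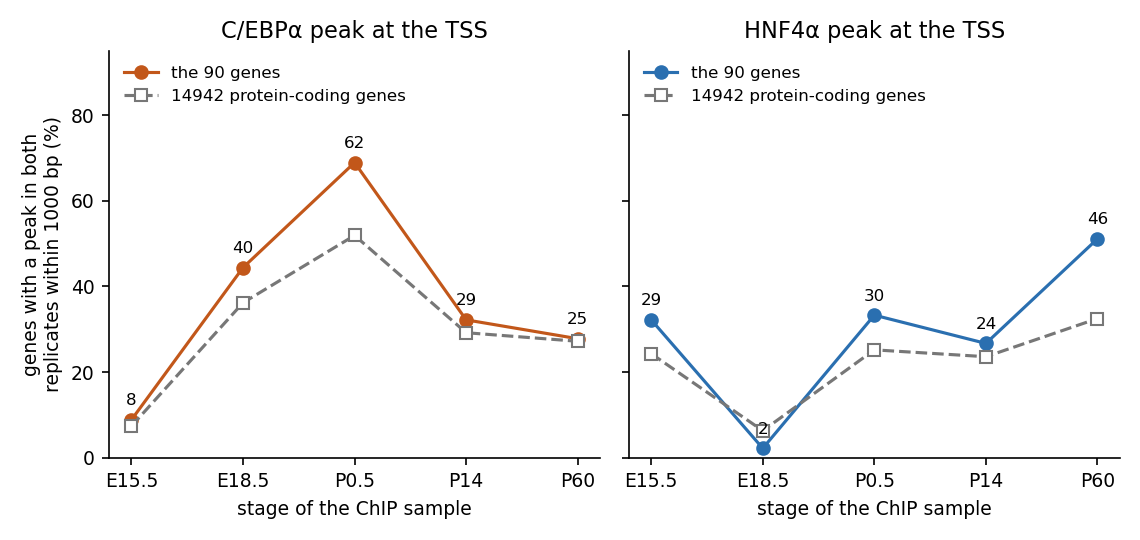
Share of the 90 genes (filled points, with their number) and of 14942 protein-coding genes (open squares) with a C/EBPα peak (left) or HNF4α peak (right) of both replicates within 1000 bp of the TSS, by stage. The 90 genes reach 68.9% for C/EBPα at P0.5 and 51.1% for HNF4α at P60, and drop to 2.22% for HNF4α at E18.5.

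C/EBPα was at the TSS at all 5 stages in 7 of the 90 genes, where 6.89% of all genes were. They are Uqcrfs1, the Rieske iron-sulfur protein of complex III, Uqcrq and Uqcr10, small subunits of the same complex, Ndufs7, a core subunit of complex I, Ndufa13, Sdhd and Atp5g1. Complex III thus held 3 of these 7 genes. Uqcr10, Uqcrq, Ndufa13 and Sdhd have the start of another protein-coding gene within 1000 bp, so a peak there may belong to the neighbour. At E15.5, when few genes were bound, the 8 bound genes were these 7 and Ndufc2. Atp5g3 was bound by C/EBPα at P14 only and Sdhc at P60 only. At P0.5 only there were 19 genes. In all, 21 of the 90 were bound by C/EBPα at 1 stage only, where 14.3% of all genes were.

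HNF4α was at the TSS at all 5 stages in 2 of the 90, Atp5b and Ndufs6, where 4.96% of all genes were, and these were also the 2 bound at E18.5. Another 10 genes were bound at each stage but E18.5, among them Atp5g2, Atp5g3, Cox5a, Ndufa4, Ndufs1, Sdhc and Ndufa4l2. Of all genes, 8.67% were bound by HNF4α at 4 stages, whichever these were. Single stages named few genes: Cox6a2, Cox6c and Cox7b at E15.5 only, Atp5e, Cox4i1, Cox4nb, Ndufa12 and Ndufa13 at P0.5 only, and Ndufa10 and Ndufv2 at P14 only. Cox4i1 and Cox4nb start within 1000 bp of each other, so 1 peak may count for both. For HNF4α the P0.5 stage rests on 1 list, where other stages required a peak in 2. At P60 only there were 11, including Sdha, Uqcrc1 and Uqcrc2. In all, 21 of the 90 were bound by HNF4α at 1 stage only, where 13.2% of all genes were. At P60 HNF4α was at 11 of 15 ATP synthase genes and at all 4 complex II genes, against 5 of 17 complex IV genes. No C/EBPα peak at any stage was found for 25 of the 90, where 45.5% of all genes had none. No HNF4α peak was found for 32, where 57.3% of all genes had none. Of the 90, 12 had no peak of either factor at any stage, among them Cox4i2, Cox7a1 and Cox6b2. The share of all genes without either is not given here.

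The genes that changed differed in where HNF4α lay. Cox4i2 had no peak within 1000 bp, and the nearest HNF4α peak lay between 11.8 and 19.7 kb from its TSS over all lists. Ndufa4l2 had an HNF4α peak in each list that began between 828 and 1030 bp from the TSS, inside the gene, for example chr10:126952872-126954222 in mm9 at P60 in replicate 1; at E18.5 its peak began just outside 1000 bp in 1 replicate. Cox8a had an HNF4α peak at the TSS at P0.5 and P60 and a C/EBPα peak at P0.5. Over all 90 genes, those with an HNF4α peak at P60 had a median change of 0.34 log2 in HNF4α KO (46 genes) and those without 0.48 (44 genes). Those with a C/EBPα peak at E18.5 had a median of -0.22 in C/EBPα KO (40 genes) and those without -0.17 (50 genes). By C/EBPα peaks at P60 the medians were -0.34 with a peak (25 genes) and -0.16 without (65 genes). These medians are descriptions, since genes are not replicates.

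Promoters were read from the RefSeq table for GRCm38.p6, which matched 71 of the 90 genes, 5 of them with more than 1 promoter; the peaks are in mm9 and were not placed on these sequences. The 6 shown here are those of genes bound by HNF4α at 5 stages (Atp5b, Ndufs6) or 4 (Atp5g2), by C/EBPα at 5 (Sdhd, Uqcrfs1), and of Cox6a1, which holds letters of 3 factors. Capitals mark, on either strand, GCATGCGC of NRF1, CCGGAAG of ETS factors such as GABP, AAGATGGC of YY1, AAGGTCA of ERRα and TTNNGCAA of C/EBP; CAAAGNNCA of HNF4α was searched too. NRF1, GABP, YY1 and ERRα are factors known to drive respiratory chain genes.
Atp5b: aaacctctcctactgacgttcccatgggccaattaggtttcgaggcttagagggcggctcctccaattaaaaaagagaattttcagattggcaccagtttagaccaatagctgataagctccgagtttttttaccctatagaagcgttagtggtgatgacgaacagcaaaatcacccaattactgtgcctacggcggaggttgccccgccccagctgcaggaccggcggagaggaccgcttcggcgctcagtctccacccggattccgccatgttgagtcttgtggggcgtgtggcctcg
Ndufs6: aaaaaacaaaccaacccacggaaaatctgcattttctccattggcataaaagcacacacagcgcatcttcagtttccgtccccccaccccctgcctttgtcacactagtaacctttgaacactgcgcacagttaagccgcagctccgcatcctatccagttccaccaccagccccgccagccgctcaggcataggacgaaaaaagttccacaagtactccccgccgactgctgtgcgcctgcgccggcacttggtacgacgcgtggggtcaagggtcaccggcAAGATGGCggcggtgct
Atp5g2: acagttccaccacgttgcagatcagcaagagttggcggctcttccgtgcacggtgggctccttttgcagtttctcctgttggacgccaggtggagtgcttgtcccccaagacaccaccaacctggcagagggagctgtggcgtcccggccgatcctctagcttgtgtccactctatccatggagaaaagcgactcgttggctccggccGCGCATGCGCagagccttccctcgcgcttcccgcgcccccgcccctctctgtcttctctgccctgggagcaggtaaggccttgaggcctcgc
Sdhd: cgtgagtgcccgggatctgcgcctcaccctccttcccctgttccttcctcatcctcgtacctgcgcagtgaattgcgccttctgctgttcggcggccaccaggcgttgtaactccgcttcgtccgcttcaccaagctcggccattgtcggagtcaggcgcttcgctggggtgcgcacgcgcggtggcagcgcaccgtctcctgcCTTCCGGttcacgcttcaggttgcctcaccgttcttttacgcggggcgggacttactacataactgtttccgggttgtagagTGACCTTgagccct
Uqcrfs1: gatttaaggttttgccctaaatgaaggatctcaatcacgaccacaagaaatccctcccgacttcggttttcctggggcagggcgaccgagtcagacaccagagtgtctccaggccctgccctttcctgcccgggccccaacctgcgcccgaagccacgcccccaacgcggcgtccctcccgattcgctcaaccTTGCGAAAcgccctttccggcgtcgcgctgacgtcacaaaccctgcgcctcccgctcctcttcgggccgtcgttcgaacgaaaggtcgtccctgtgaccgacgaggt
Cox6a1: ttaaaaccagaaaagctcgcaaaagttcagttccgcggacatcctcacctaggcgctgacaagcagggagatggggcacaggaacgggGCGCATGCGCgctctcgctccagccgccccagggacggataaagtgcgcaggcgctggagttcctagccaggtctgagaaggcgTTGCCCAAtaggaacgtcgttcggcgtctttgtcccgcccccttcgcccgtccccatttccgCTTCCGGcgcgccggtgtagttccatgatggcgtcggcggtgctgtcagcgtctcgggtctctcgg
Their positions are chr10:128083057-128083356 (plus strand) for Atp5b, chr13:73328433-73328732 (minus) for Ndufs6, chr15:102670998-102671297 (minus) for Atp5g2, chr9:50603800-50604099 (minus) for Sdhd, chr13:30545267-30545566 (minus) for Uqcrfs1 and chr5:115348909-115349208 (minus) for Cox6a1. In Atp5g2 and Cox6a1 the NRF1 letters lie on both strands and overlap as GCGCATGCGC. Ndufs6 has the YY1 letters at 284 to 291, after the start. Sdhd has the ETS letters at 205 to 211 and the ERRα letters at 287 to 293. Uqcrfs1 has the C/EBP letters at 194 to 201. Atp5b, with HNF4α at all 5 stages, holds none of the 6 motifs in this window.

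Over the 71 promoters the letters of the 4 respiratory factors were more frequent than over all promoters. NRF1 letters were in 11 of 71 genes (15.5%), against 5.45% of 10356 genes that passed the RNA filter and 3.05% of all 27025 genes. ETS letters were in 19 (26.8%), against 17.4% and 9.93%. YY1 letters were in 9 (12.7%), against 4.63% and 3.19%, and ERRα letters in 8 (11.3%), against 4.29% and 5.38%. HNF4α letters were in 6 (8.45%), against 6.69% and 7.27%, and C/EBP letters in 9 (12.7%), against 10.7% and 12.2%, both near the shares of other genes. A match describes the letters in this window and is not a measured site.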

How the data were processed

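RNA was measured by RNA-seq in 8 mouse liver libraries and factor binding by ChIP-seq in wild-type liver. The RNA table holds DESeq-normalized reads per gene that the authors rounded to whole numbers, a score rather than a raw count, in the deposited table; the depth before normalization is therefore not known. The submitters' processing notes name bcl2fastq, TopHat2, Cufflinks, BWA, bedtools, FastQC, DESeq and MACS 1.4 with the mm9 build. The sources used here do not say which gene set was counted or whether strand was used. The 20 deposited peak lists were made per sample, and their score column is 0 throughout, so only positions were used. RNA polymerase II and input samples (20) were not used.

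Genes with a value of 10 or more in at least 2 of 8 libraries were kept (17771). Log2(value + 1) was fitted with limma 3.58.1 in R 4.3.3 with a variance trend, all 8 libraries in 1 fit, 2-sided, for 3 contrasts, with Benjamini-Hochberg adjustment over all genes and a threshold of 0.05; the fit was tested on simulated data. Fold changes are on the log2(value + 1) scale, which understates changes of low genes. No batch or date is given for the RNA libraries. Diets of standard chow and high fat are named for the study but not per sample. The start site is the 5′ end of the gene in the table, and a gene was bound when each replicate had a peak within 1000 bp. Tables and figures were made with Python 3.11.15, pandas 2.3.3 and matplotlib 3.10.9.

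Genes named with values were those past the threshold, the 5 highest and 5 lowest changes in each knockout, the tissue isoform pairs, complex II, the gene with the most WT reads in each complex, and genes bound at every stage or, for up to 5 genes, at 1 stage. The genes, lists and tests were chosen with earlier results of these data known. The list of genes raised by low oxygen, Shmt2, the counts of groups that do not overlap and the promoters shown were chosen after the values were seen. Alternatives were the pseudocount, the filter, the scaling, the fit, the libraries included, the window around the start site and the replicates required.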

Additional observations from a re-analysis of the deposited data

Results flagged for a closer look

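Ndufa4l2, Cox4i2 and Cox8a differed between the knockouts by a test of that difference in limma. The adjusted p was 0.0103 for Ndufa4l2, 0.0115 for Cox4i2 and 0.0322 for Cox8a, each lower in C/EBPα KO than in HNF4α KO, and all 3 C/EBPα KO libraries lay below both HNF4α KO libraries for each gene. With either HNF4α KO library as the only 1 of its group, none of the 3 passed, and the differences were -3.24 to -3.73, -4.29 to -4.64 and -1.82 to -1.89 in the same order; the lone library was assumed to vary like the other groups. The Cox8a call was also lost with equal library totals (0.0836), no filter on values (0.0596), only the groups compared (0.0607), a replicate block (0.108) or no variance trend (0.0658). It was lost too without WT replicate 3 and C/EBPα KO replicate 1 together (0.116), without C/EBPα KO replicate 1 (0.105) and without WT replicate 1 (0.0706).

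Cox8b, which did not pass the value filter and entered no test, had 300 normalized reads in HNF4α KO replicate 1 and 1 in replicate 2, against 0 in each WT library. That library also held the skeletal muscle markers; their part in this value was not tested.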

How the results depend on the processing

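No single named gene changed direction past the threshold. The median over the 90 genes in C/EBPα KO minus WT did change sign. It was -0.20 as reported, 0.31 with equal library totals, where the median of all genes was 0.53, and 0.17 without WT replicate 2. The number of the 90 genes called in C/EBPα KO minus WT, 0 as reported, was 10 with array weights (all lower, against 9.45% of all genes) and 0 to 1 when single libraries were left out. In HNF4α KO minus WT, 2 as reported, it was 1 with no filter on values, 1 with the replicate block, 1 without the variance trend, 1 with 2 libraries left out (WT replicate 3 and C/EBPα KO replicate 1), 18 with array weights (17 higher and 1 lower, against 11.8% and 12.5% of all genes), and 0 to 4 when single libraries were left out. In C/EBPα KO minus HNF4α KO, 3 as reported, it was 16 with array weights (all lower, against 7.88% of all genes), 1 with the same 2 libraries left out, and 0 to 5 when single libraries were left out. Medians over the 90 genes ran from -0.51 to 0.17 in C/EBPα KO and from 0.08 to 0.85 in HNF4α KO when single libraries were left out. Of the comparisons of single named genes under each alternative, 1451 kept their side of the threshold, 22 newly passed and 26 no longer passed. The causes were not tested. The labels do not say whether equal replicate numbers pair the libraries. Same-numbered deviations from the group means correlated with WT at -0.06, 0.19 and -0.23 for C/EBPα KO and 0.11 and 0.03 for HNF4α KO. Such values, taken around means of 2 or 3 libraries, cannot show whether the libraries are paired.

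With a peak of either replicate required, C/EBPα was at 13 genes at E15.5, 44 at P14 and 48 at P60, and HNF4α at 48 at E15.5, 14 at E18.5 and 43 at P14. Within 5000 bp, C/EBPα was at 45 genes at P60, and HNF4α at 44 at E15.5 and 12 at E18.5. With 1 list alone, C/EBPα counts were 10 to 11, 43 to 53, 66 to 67, 35 to 38 and 27 to 46 over the 5 stages, and HNF4α counts were 30 to 47 at E15.5, 8 with either list at E18.5, 33 to 34 at P14 and 51 to 63 at P60. Groups of 2 or 3 libraries limit what could be detected.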
